A study of Arabidopsis thaliana with 10 samples.

Results

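Members of the phosphatidylethanolamine-binding protein (PEBP) family of Arabidopsis thaliana were followed in endosperm, the nutritive tissue of the seed. The 6 genes are MFT (AT1G18100, listed in the reference table as E12A11), TFL1 (AT5G03840), BFT (AT5G62040), ATC (AT2G27550), FT (AT1G65480) and TSF (AT4G20370). They were picked by gene identifier as the named members of the family, 6 of the 37328 genes in the expression tables. The family was brought up by the fall of MFT against balanced endosperm in the authors' tables, so every comparison of the 6 genes with balanced endosperm is a description and no test of them. RNA came from hand-dissected endosperm of seeds from crosses between several plants. Viable paternal excess came from Ler plants (the Landsberg erecta strain) pollinated by 4N (tetraploid) Col nrpd1 plants, and lethal paternal excess from Ler plants pollinated by 4N Col plants that carried no nrpd1 label. Both were labelled 7 days after pollination, except 1 sequencing part of lethal replicate 1 at 8 days, and the series text says 6 days. There were 3 replicates a group, from 5 samples, because the authors gave the 2 parts of replicates 1 and 2 as 1 column. Balanced endosperm, with 2 maternal genome copies for each paternal copy, came from 5 replicates of other series and enters only as the authors' pooled values. The age and parents of the balanced endosperm are not given here. Its series, library batch, any difference in age and paternal genome dose cannot be told apart.

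PEBP proteins are small proteins that act on development mostly through partner transcription factors. FT and TSF are florigens: they travel from leaf to shoot tip, join the bZIP factor FD through phosphopeptide-binding adaptor proteins encoded by the GRF genes, and promote flowering. TFL1, ATC and BFT bind the same partners and hold flowering back. MFT is the family's seed gene. It is controlled by ABI3, ABI5 and DELLA proteins, which carry the abscisic acid (ABA) and gibberellin (GA) signals, and it acts on germination. TFL1 has also been described in the endosperm of young seeds, where it acts with the small GTPase RAN1 and with ABI5 on cellularisation.

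Allele reads, those assigned to Ler or Col within genes, totalled 5692640 to 6683136 in viable libraries, 7356862 to 7983669 in lethal libraries and 11895484 in the balanced pool. The floor that a gene with no read leaves, taken as 3 reads, was 0.449 to 0.527 CPM (reads scaled to the library's gene reads) in viable libraries, 0.376 to 0.408 CPM in lethal libraries and 0.252 CPM in the balanced pool. Floors and intervals cover only counting error. The third replicate of each group detected fewer genes, 13465 in viable and 15829 in lethal endosperm, against 16560 to 17246 in the other 4 libraries. No source says that the replicates came from separate plants, and the p-values given may therefore reflect technical spread only. As a check of the tissue, each of the 9 endosperm markers held allele reads in at least 1 library. In the balanced pool PHE1, WRKY10 and IKU2 held none, and FWA held 2. The 9 markers summed to 1562 to 5573 CPM in viable libraries, 1669 to 4205 CPM in lethal libraries and 1524 CPM in the balanced pool. HDG3 alone made up 1091 to 4687 CPM in viable and 1267 to 3607 CPM in lethal libraries, and ALE1 made up 1251 CPM in the pool. In FPKM (fragments scaled to transcript length and library size), 2 of the markers, WRKY10 and IKU2, were listed at 0 in balanced endosperm. Summed FPKM of the 9 was 1320 in viable and 1240 in lethal endosperm, against 161 to 162 in balanced. Calls among the 8 tested in the authors' deposited table were 4 up and 1 down in viable and 5 up and 2 down in lethal endosperm, with median log2(FPKM + 1) differences of 0.89 and 1.93. Of all genes tested, 27.0% were called in viable and 34.1% in lethal endosperm. The part of these marker differences in the levels given here was not tested.

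MFT was the most abundant of the 6 genes in balanced endosperm and far lower in both kinds of paternal excess. The authors' FPKM for MFT was 9.46 in viable endosperm, against 1196 in balanced endosperm in the same table. In lethal endosperm the authors' FPKM for MFT was 2.61, against 1195 in balanced endosperm. These are levels 126-fold and 459-fold lower than balanced. In balanced endosperm MFT ranked 143 of 26135 genes above 0 by FPKM, in the table with lethal endosperm. Of all genes, those listed at 0 included, 72.7% lay below it in viable endosperm and 59.5% in lethal endosperm. Among the falls that the authors' deposited table called and that were above 0, MFT had the 8th largest fold of 2920 in viable and the 10th of 3803 in lethal endosperm. From bulk RNA, fewer cells that express a gene and less of its RNA per cell cannot be told apart.

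**Figure D1:**
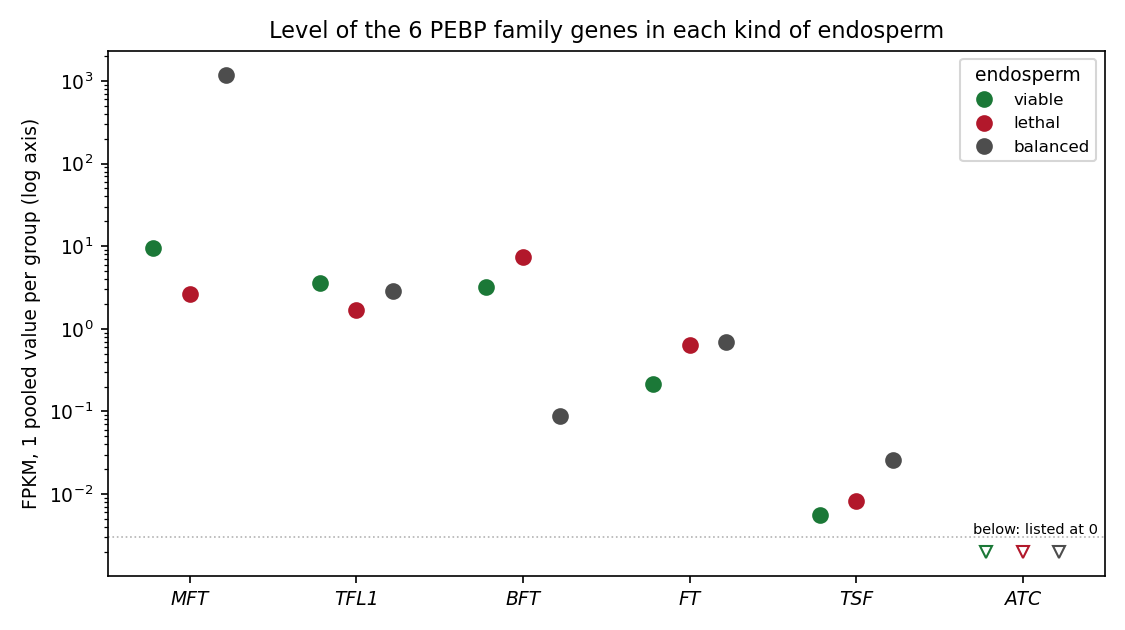
Level of each of the 6 genes in FPKM (log axis), the authors' pooled value in viable, lethal and balanced endosperm, from the comparisons with balanced. MFT stands at 1195 in balanced endosperm and at 9.46 and 2.61 in viable and lethal endosperm, BFT runs the other way, and ATC is listed at 0 in all of them.

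The florigen antagonists had another pattern. TFL1 stayed at a few FPKM throughout: the authors' values were 3.61 in viable endosperm against 2.85 in balanced, and 1.70 in lethal against 2.84 in balanced. Neither difference was called in the authors' deposited table (q = 0.737 and 0.320). BFT was close to absent in balanced endosperm and present under paternal excess. Its FPKM in the authors' tables was 3.21 in viable against 0.0886 in balanced endosperm (36.2-fold higher), and 7.33 in lethal against 0.0891 in balanced endosperm (82.3-fold higher). The authors' deposited table made no call for BFT either way (q = 0.380 in viable and 0.334 in lethal). ATC was listed at 0 in all 3 kinds of endosperm and was not tested.

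Of the florigen genes, FT ranked 21977 of 28361 genes above 0 in viable, 19321 of 29019 in lethal and 18524 of 26135 in balanced. TSF ranked lower in each. Of all genes, those listed at 0 included, 41.1% lay below FT in viable, 48.2% in lethal and 50.4% in balanced endosperm. For TSF these shares were 27.1%, 27.3% and 33.8%. FT had 0.214 FPKM in viable endosperm against 0.699 in balanced, and 0.633 in lethal against 0.697 in balanced, by the authors' values. The authors' deposited table called neither (q = 0.202 and 0.912). TSF had 0.00557 FPKM in viable, 0.00831 in lethal and 0.0262 in balanced endosperm, and the authors made no test of it. Of the 4 members that the authors' deposited table tested against balanced, MFT alone was called, as lower, in both comparisons. Of all genes tested, 27.0% were called in viable (12.9% lower and 14.2% higher) and 34.1% in lethal endosperm (16.6% lower and 17.5% higher). By size, MFT and BFT differed from balanced by over 1 in log2(FPKM + 1) in both groups, as did 19.6% of all genes in viable and 24.6% in lethal endosperm. By level, the order in viable endosperm was MFT, TFL1, BFT, FT and TSF, and in lethal endosperm BFT, MFT, TFL1, FT and TSF. In balanced endosperm it was MFT, TFL1, FT, BFT and TSF. With a single pooled FPKM per group, whether neighbours in these orders differ beyond their spread cannot be said.

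In the files, MFT lies in a locus on chromosome 1 (TAIR10, 6224405 to 6230194) that it shares with AT1G18090 and AT1G05383. AT1G18090, which has no allele reads, had 2.49, 2.00 and 1.43 FPKM in viable, lethal and balanced endosperm, uncalled by the authors. AT1G05383 had 0.0762, 0.110 and 10.2 FPKM by the authors' values, also uncalled (q = 0.199 in viable and 0.158 in lethal in the authors' deposited table), and 29 allele reads in the balanced pool. BFT lies on chromosome 5 in a locus (24922802 to 24927314) shared with OXA1 (AT5G62050), a gene for a mitochondrial membrane insertase. OXA1 had 12.5 FPKM in viable, 14.6 in lethal and 6.82 in balanced endosperm, with a call as higher for lethal (q = 0.0267) and none for viable (q = 0.0659) by the authors' deposited table. No source states whether counting used the strand, so reads from the overlap of BFT and OXA1, or of MFT and its neighbours, may not be separable. The other members stand alone in theirs, TFL1 at 1024500 to 1025872 on chromosome 5, FT at 24331373 to 24333999 on chromosome 1, TSF at 11000771 to 11003010 on chromosome 4 and ATC at 11773187 to 11774746 on chromosome 2.

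Reads that carry a difference between Ler and Col gave a second view of 2 members, library by library. Only 3 of the 6 genes had such a read. MFT and BFT passed the filter on low counts, and TSF had 1 read, a Ler read in the balanced pool. TFL1, FT and ATC had none in any library, including groups where the FPKM of TFL1 was above 1, so an allele count of 0 does not bound the level of these genes.

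MFT had 161, 19 and 89 reads in viable replicates 1, 2 and 3, which is 28.3, 3.01 and 13.3 CPM. It had 13, 72 and 10 reads in lethal replicates 1, 2 and 3, which is 1.63, 9.79 and 1.35 CPM. The balanced pool held 26979 MFT reads, 2268 CPM. Every library of both paternal-excess groups lay far below the pool, and the 2 groups overlapped, because viable replicate 2 lay below lethal replicate 2. Over the summed reads, MFT was 157-fold lower in viable and 543-fold lower in lethal than in balanced endosperm. Without viable replicate 1 the first value was 273-fold, and without lethal replicate 2 the second was 1518-fold.

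The level in viable over lethal libraries was tested by edgeR's quasi-likelihood test over 12674 genes, to ask whether the nrpd1 father changed the level. MFT averaged 14.9 ± 12.7 CPM in viable and 4.25 ± 4.79 CPM in lethal libraries (SD, n = 3 each). The log2 difference of viable over lethal was 1.83 (SE 0.93), a 3.55-fold higher level that did not pass the test (edgeR adjusted p = 0.804). Leaving out lethal replicate 2 gave a log2 difference of 3.24 and leaving out viable replicate 1 gave 1.14, with no call in either case. The authors' FPKM in the direct comparison was 10.2 in viable and 2.84 in lethal endosperm (3.59-fold higher), which their deposited table did not call (q = 0.564).

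BFT had 18, 28 and 23 reads in viable replicates 1, 2 and 3 (3.16, 4.44 and 3.44 CPM). In lethal replicates 1, 2 and 3 it had 35, 35 and 139 reads (4.38, 4.76 and 18.7 CPM), and in the balanced pool 0 reads. Lethal replicate 3 was alone above 5 CPM, and viable replicate 2 lay between lethal replicates 1 and 2. Against the floor of 3 reads in the pool, BFT was at least 14.6-fold higher in viable and at least 36.4-fold higher in lethal than in balanced endosperm. Lethal replicate 3 held 139 of the 209 lethal reads, and without it the bound for lethal was at least 18.1-fold.

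Between the paternal-excess groups BFT averaged 3.68 ± 0.673 CPM in viable and 9.30 ± 8.19 CPM in lethal libraries (SD, n = 3 each). Its log2 difference of viable over lethal was -1.43 (SE 0.70), with no call (edgeR adjusted p = 0.789). Without lethal replicate 3 that difference shrank to -0.26. The authors' FPKM was 3.45 in viable and 7.91 in lethal endosperm, not called in their deposited table (q = 0.998).

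**Figure D2:**
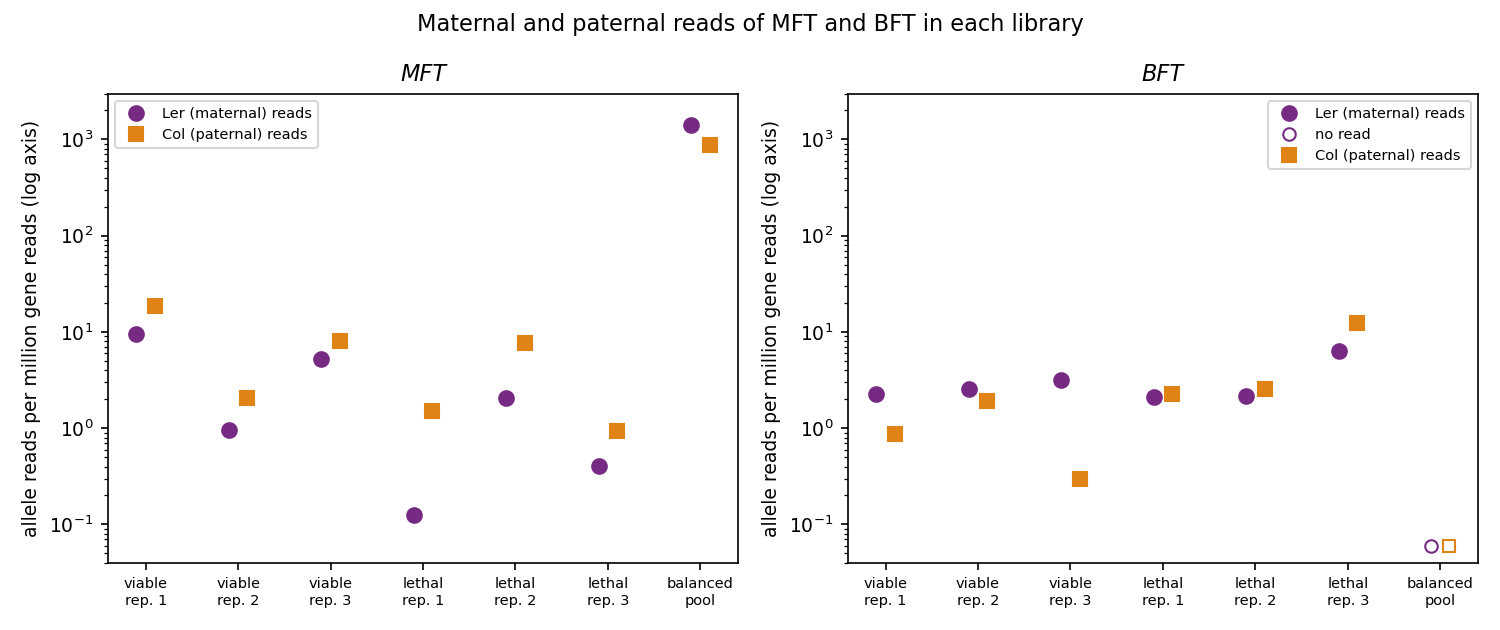
Reads of MFT (left) and BFT (right) assigned to the Ler (circles) or Col (squares) allele, in CPM on a log axis. The 3 viable and 3 lethal libraries and the balanced pool are shown. Ler was the mother and Col the father in the viable and lethal crosses. The parents of the pool are not given here, so the labels maternal and paternal hold only for those crosses. MFT stands at 1399 (Ler) and 869 (Col) in the pool and far lower in every other library, and BFT has no read in the pool (open symbols).

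TFL1, FT and TSF could be compared between the paternal-excess groups only by FPKM. TFL1 had 3.88 FPKM in viable and 1.84 in lethal endosperm by the authors' values (q = 0.706 in their deposited table). FT had 0.229 FPKM in viable and 0.687 in lethal endosperm by the authors' values (q = 0.744 in their deposited table). TSF had 0.00609 and 0.00911 FPKM there and was not tested. The authors' deposited table thus called 0 of 4 tested members between viable and lethal endosperm, against 2.51% of all tested genes (0.769% lower and 1.74% higher in viable). By size, MFT and BFT differed by over 1 in log2(FPKM + 1) between these groups, as did 4.66% of all genes. By edgeR 0 of the 2 members tested were called, as were 0.0% of all 12674 genes, although 865 of these genes (6.82%) had an unadjusted p under 0.05. DESeq2 called 199 genes and edgeR with the replicate number as a block called 117, with neither MFT nor BFT among them.

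The Ler and Col shares of the MFT reads were taken from the same counts. Ler was the mother and Col the father in both paternal-excess crosses, so parental origin and strain cannot be told apart. Col reads made up 66.5%, 68.4% and 60.7% of MFT reads in viable replicates 1, 2 and 3. In lethal replicates 1, 2 and 3 the Col share was 92.3%, 79.2% and 70.0%, of as few as 10 reads in replicate 3. All viable libraries lay below all lethal ones, the nearest being 68.4% and 70.0%. In the balanced pool the Col share was 38.3% (exact Clopper-Pearson 95% interval 37.7 to 38.9%).

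Set against the median gene, MFT had a higher Col share in each paternal-excess library. Its exact 95% interval covered the median in viable replicates 2 and 3 and lethal replicate 3. The median Col share over 10183 genes with at least 10 reads in each library was 50.3% to 51.7% in viable and at most 51.1% in lethal libraries. MFT lay above 70.6% to 89.6% of these genes in viable libraries and above 88.8% to 97.7% of them in lethal libraries. In the balanced pool the median over 13402 genes was 33.7%, and MFT lay above 67.1% of them. On the summed reads, the Ler allele of MFT stood at 5.09 CPM in viable against 1399 CPM in balanced endosperm (275-fold lower), and the Col allele at 9.32 against 869 CPM (93.2-fold lower). In lethal endosperm the Ler allele stood at 0.835 CPM (1676-fold lower than balanced, from 19 reads) and the Col allele at 3.34 CPM (260-fold lower). Lethal replicate 2 held 15 of those 19 Ler reads, and without it the falls were 5387-fold for Ler, from 4 reads, and 704-fold for Col. Without viable replicate 1 the falls in viable were 443-fold for Ler and 168-fold for Col.

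BFT reads were mostly Ler in viable libraries and a little over 50% Col or more in lethal libraries. Its Col share was 27.8%, 42.9% and 8.70% in viable replicates 1, 2 and 3, and 51.4%, 54.3% and 66.2% in lethal replicates 1, 2 and 3. All viable libraries lay below all lethal ones. BFT lay above 7.79% to 19.7% of genes in viable and above 54.9% to 85.3% of genes in lethal libraries. The exact 95% interval of its Col share covered the median gene in viable replicates 1 and 2 and lethal replicates 1 and 2. For OXA1, which shares the locus, the Col share was 32.9%, 40.0% and 70.8% in viable and 41.9%, 42.8% and 43.1% in lethal replicates 1, 2 and 3, so its groups overlapped. Seed coat marker reads were nearly all Ler in the viable and lethal libraries. The 5 seed coat markers that edgeR tested had Col shares of 0 to 5.88% there. Among them TT10 stood at 244 to 780 CPM. In the balanced pool GL2 had a Col share of 16.2% of 1107 reads, and BAN, TT10, TT8 and STK had at most 0.528%. The part of seed coat RNA in the Col shares of MFT and BFT was not tested.

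The difference in Col share was tested by edgeR's quasi-likelihood test of the allele-by-group term over the same 10183 genes. For MFT the mean Col share was 65.2% ± 4.03 in viable and 80.5% ± 11.2 in lethal libraries (SD, n = 3 each). The log2 ratio of Col to Ler reads was lower by 1.15 (SE 0.69) in viable, which did not pass (edgeR adjusted p = 0.940). For BFT the mean was 26.4% ± 17.1 in viable and 57.3% ± 7.83 in lethal libraries (SD, n = 3 each). Its log2 ratio was lower by 1.98 (SE 0.89) in viable, also without a call (edgeR adjusted p = 0.940, unadjusted p = 0.0517). Leaving out viable replicate 3 gave -1.31 and leaving out viable replicate 2 gave -2.70 for this log2 difference, and -0.98 was left without replicate 3 of both groups. Both members had groups that did not overlap with viable lower, as 4.96% of all tested genes did, while 6.56% did not overlap with viable higher. Of all genes, 0.0786% were called and 4.63% had an unadjusted p under 0.05.

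**Figure D3:**
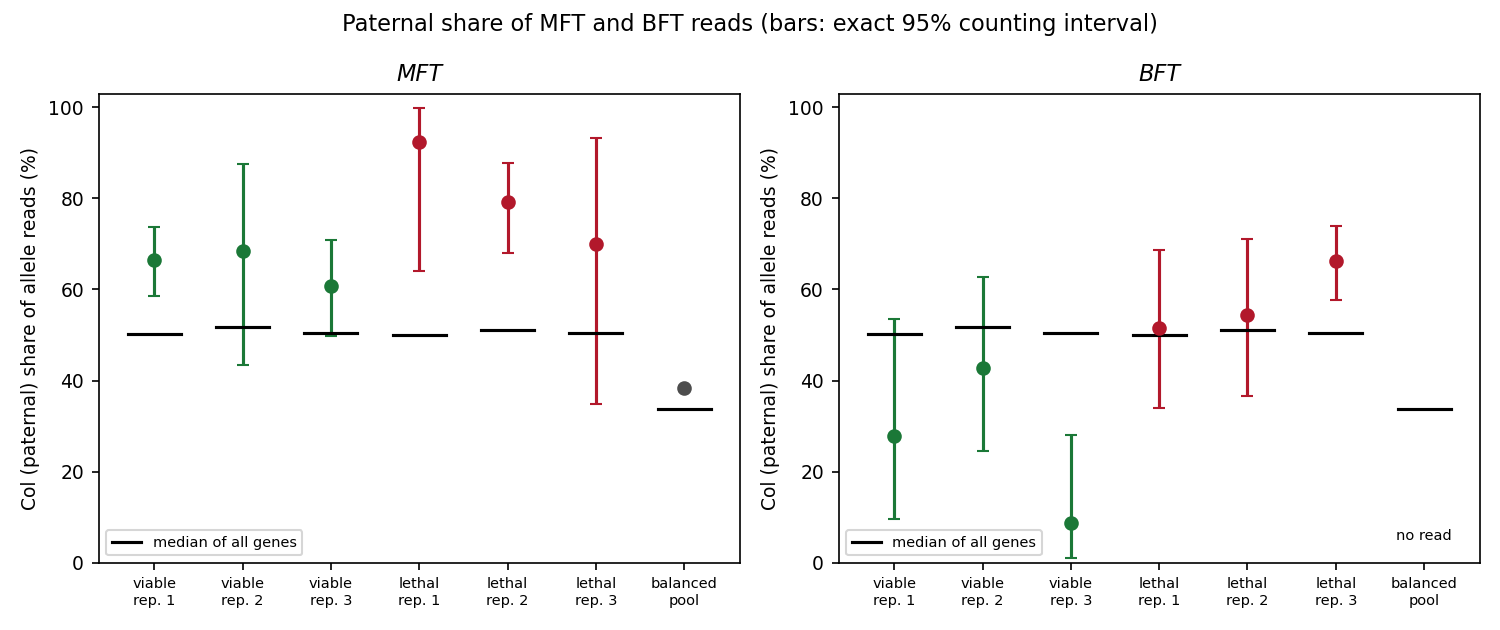
Col share of the allele reads of MFT (left) and BFT (right) in percent, with exact 95% counting intervals, in each viable and lethal library and the balanced pool. Col was the father in the viable and lethal crosses, and the parents of the pool are not given here. Black lines give the median of all genes. MFT lies above the line in every library, and BFT lies below it in the viable libraries and above it in the lethal libraries. For MFT the interval covers the line in viable replicates 2 and 3 and lethal replicate 3. For BFT it covers the line in viable replicates 1 and 2 and lethal replicates 1 and 2.

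Other genes were ranked by how closely they followed MFT. Over the 6 paternal-excess libraries, the 5 genes with the highest Pearson r of log2 CPM to MFT were RMV1 (AT5G05630, r = 0.980), FEI2 (AT2G35620, 0.947), AT3G17265 (0.943), RAS1 (AT1G09950, 0.943) and AT5G52380 (0.940). These are descriptions over 6 libraries, chosen as the highest of 12674 genes. RAS1 had 43.9, 11.9 and 16.3 CPM in viable replicates 1, 2 and 3 and 10.1, 16.2 and 5.94 CPM in lethal replicates 1, 2 and 3, so that, as for MFT, the highest library of each group was viable replicate 1 and lethal replicate 2. Over the 3 pooled FPKM values, the genes nearest to MFT were AT1G15010, SESA3, AT4G10270, AT1G12805 and AT4G05775. SESA3 encodes a seed storage albumin and had 12.9 FPKM in viable, 2.33 in lethal and 531 in balanced endosperm by the authors' values. AT1G15010 had 10.0, 2.81 and 655 FPKM there.

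TFL1 has no allele reads, so likeness to it could be taken over the 3 pooled FPKM values alone. AT5G02230, ACS7, AT5G09275, PELPK1 and AT1G05950 were nearest. ACS7, of the enzyme family that makes the ethylene precursor, had 3.22 FPKM in viable, 1.82 in lethal and 3.11 in balanced endosperm by the authors' values.

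The ABA, GA and partner genes around MFT and TFL1 held calls in both directions. Against balanced endosperm, 12 genes were tested in the authors' deposited table, with 1 higher and 5 lower in viable and 2 higher and 5 lower in lethal endosperm. Over all genes tested, the shares called were 14.2% higher and 12.9% lower in viable, and 17.5% higher and 16.6% lower in lethal endosperm. The median difference in log2(FPKM + 1) of the list was -0.59 in viable and -0.53 in lethal endosperm, against 0.03 and 0.06 over all genes tested. SPT, a bHLH factor that acts in seed dormancy, fell to 16.7 FPKM in viable against 64.6 in balanced endosperm, and to 10.1 in lethal against 64.5 in balanced endosperm, in the authors' deposited table. ABI3, the B3-domain factor of seed maturation, fell to 9.20 FPKM in viable and 5.64 in lethal endosperm, against 20.5 in balanced endosperm, in the authors' deposited table.

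DELLA genes hold back GA responses, and of the 5 listed 3 fell and 1 rose in both groups. RGA1 fell to 2.62 FPKM in viable and 2.22 in lethal endosperm, against 14.95 in balanced endosperm, in the authors' deposited table. RGL2, the DELLA gene best known from seed germination, fell to 2.28 and 2.73 FPKM in viable and lethal endosperm, against 10.6 in balanced, in the authors' deposited table. RGL3 fell to 2.94 and 1.43 FPKM in viable and lethal, against 9.64 in balanced. GAI rose to 3.65 FPKM in viable (q = 0.00562) and 2.68 in lethal endosperm (q = 0.0155), against 0.993 in balanced, in the authors' deposited table. RGL1 was uncalled, with 1.13 and 0.860 FPKM in viable and lethal endosperm and 0.892 in balanced.

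ABI5, the bZIP factor of ABA responses, had 1.09 FPKM in viable, 1.05 in lethal and 2.21 in balanced endosperm without a call (q = 0.185 and 0.134 in the authors' deposited table). ABI4, another ABA response factor, rose to 0.726 FPKM in lethal endosperm against 0.0995 in balanced, and had 0.582 FPKM in viable endosperm with no call, by the authors' deposited table (q = 0.0740). RAN-1, the small GTPase named beside TFL1, had 86.1 FPKM in viable, 94.8 in lethal and 126 in balanced endosperm without a call. The bZIP partners were scarce: FD had 0.414, 0.902 and 0.447 FPKM and its homologue BZIP27 0.224, 0.288 and 0.103 FPKM in viable, lethal and balanced endosperm, all uncalled. FTIP1, needed in leaf for FT transport, and SOM, PIL5, EM1 and GEA6 of the seed light and ABA responses were not tested against balanced endosperm by the authors.

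Allele reads gave ABI3 and RGA1 library by library. ABI3 had 26.0, 44.7 and 5.99 CPM in viable replicates 1, 2 and 3 and 13.8, 28.0 and 3.51 CPM in lethal replicates 1, 2 and 3, against 121 CPM in the balanced pool. RGA1 had 3.29 to 9.13 CPM in viable and 2.70 to 7.52 CPM in lethal libraries, against 69.0 CPM in the pool. In both genes replicate 3 was the lowest of each group. Between viable and lethal endosperm 0 of the 4 genes of the list that edgeR tested were called, with 0 at an unadjusted p under 0.05 and 0 by DESeq2. Of all 12674 genes, edgeR called 0.0%, 6.82% had an unadjusted edgeR p under 0.05, and DESeq2 called 199.

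Most flowering regulators were low and uncalled, with FLC and TEM1 as the exceptions. The authors' deposited table tested 8 of them in viable and 11 in lethal endosperm, and each time 1 was called higher and 1 lower. Over all genes tested, 27.0% were called in viable and 34.1% in lethal endosperm. The list's median difference in log2(FPKM + 1) was -0.04 in viable and -0.03 in lethal endosperm, against the same 0.03 and 0.06. FLC, the MADS-box repressor of FT, fell to 7.86 FPKM in viable and 3.36 in lethal endosperm, against 60.6 in balanced endosperm, in the authors' deposited table. TEM1, also a repressor of FT, rose to 1.05 FPKM in viable (q = 0.0274) and 2.12 in lethal endosperm (q = 0.00242), against 0.242 in balanced, in the authors' deposited table. The FT activators CO and GI had 0.481 and 6.54 FPKM in viable, 0.453 and 5.06 in lethal and 0.484 to 0.486 and 7.01 in balanced endosperm, without calls. The floral targets AP1 and LFY were listed at 0 in balanced endosperm.

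FLC reads were mostly Col in every kind of endosperm, which does not separate the father from the strain. Its Col share was 96.1%, 88.9% and 100% in viable replicates 1, 2 and 3 (51, 45 and 61 reads), 92.5%, 69.2% and 76.5% in lethal replicates 1, 2 and 3 (40, 13 and 17 reads), and 89.2% of 664 reads in the balanced pool. Its level was 8.96, 7.14 and 9.13 CPM in viable and 5.01, 1.77 and 2.29 CPM in lethal libraries, which did not overlap, and non-overlap in that direction was found for 7.14% of all genes (5.9% with viable lower). The log2 difference of viable over lethal was 1.48 (SE 0.56), with no call (edgeR adjusted p = 0.641). It was the only gene of 4 tested in its list with an unadjusted p under 0.05, and edgeR and DESeq2 each called 0 of the 4. Over all 12674 genes, 6.82% had an unadjusted edgeR p under 0.05, edgeR called 0.0% and DESeq2 called 199.

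The GRF adaptor genes, which link FT and TFL1 to FD, split in direction: of 12 tested by the authors' deposited table, 2 were called higher and 3 lower in viable, and as many in lethal endosperm, where 27.0% and 34.1% of all genes tested were called in either direction. Their median difference in log2(FPKM + 1) was -0.29 in viable and -0.58 in lethal endosperm, against 0.03 and 0.06 over all genes tested. GRF13 rose to 48.5 FPKM in viable and 55.0 in lethal endosperm, against 1.59 in balanced, in the authors' deposited table. GRF7 rose to 95.8 and 125 FPKM in viable and lethal, against 36.8 in balanced, in the authors' deposited table, and its allele reads stood at 132 to 138 CPM in viable and 155 to 187 CPM in lethal libraries against 74.6 CPM in the pool. GRF1 fell to 108 and 79.3 FPKM in viable and lethal, against 245 to 246 in balanced, in the authors' deposited table. GRF8 (57.7, 40.3 and 129 FPKM in viable, lethal and balanced) and GRF9 (206, 195 and 492 to 493 FPKM) were the other falls in the authors' deposited table. Between viable and lethal endosperm 0 of 8 GRF genes were called by edgeR, 0 had an unadjusted p under 0.05 and DESeq2 called 0. For all 12674 genes the edgeR shares were 0.0% called and 6.82% at an unadjusted p under 0.05, and DESeq2 called 199.

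**Figure D4:**
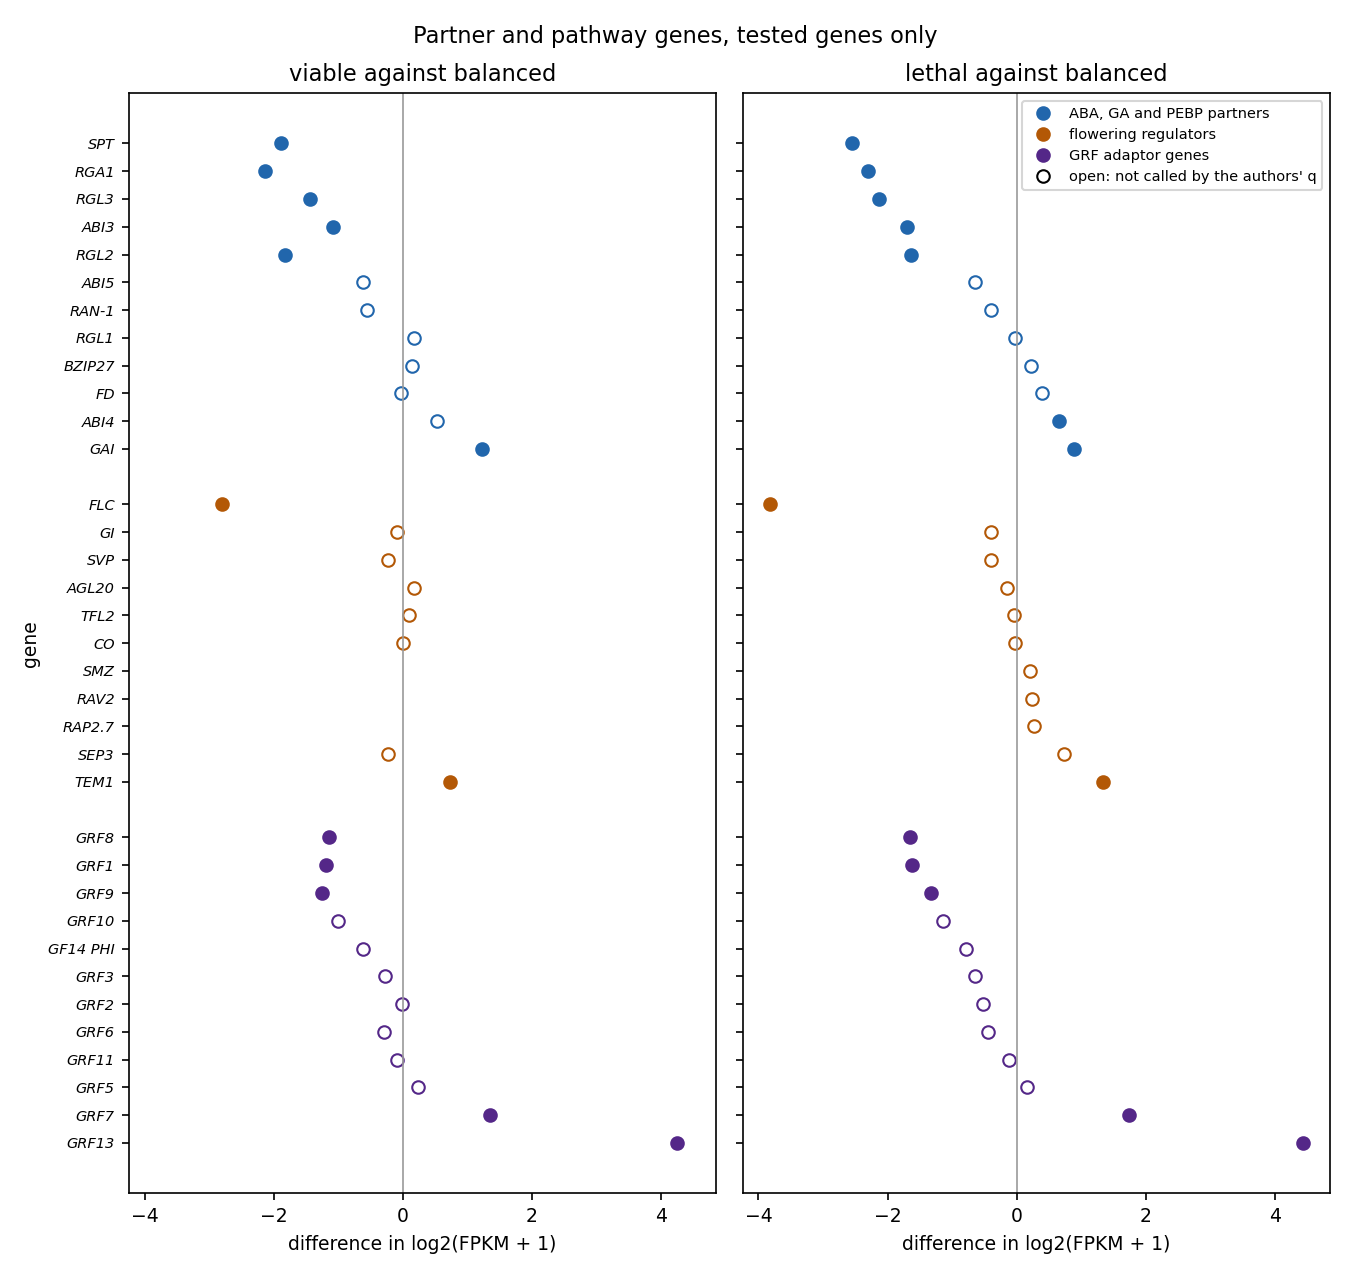
Difference in log2(FPKM + 1) against balanced endosperm for viable (left) and lethal (right) endosperm, for the tested genes of the 3 lists, with filled points called in the authors' deposited table. FLC is the lowest and GRF13 the highest in both panels, and 3 of the 5 DELLA genes and ABI3 lie left of 0 with filled points.

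Some markers of neighbouring tissues were called against balanced endosperm, and their part in the levels of the 6 genes was not tested. Of all genes tested, 27.0% were called in viable (12.9% lower and 14.2% higher). In lethal endosperm 34.1% were called (16.6% lower and 17.5% higher). Calls in the authors' deposited table for the 10 embryo markers were 1 higher and 3 lower in viable (8 tested) and 4 higher and 2 lower in lethal endosperm (9 tested). CUC1, an embryo boundary gene, stood at 6.07 FPKM in viable, 0.702 in lethal and 32.3 to 32.4 in balanced endosperm by the authors' values, falling in the same order as MFT. The embryo list summed to 777 to 812 CPM in viable and 611 to 937 CPM in lethal libraries, and to 499 CPM in the balanced pool. Most of it was LEC1, also known from endosperm, and CUC2 was listed at 0 in balanced and ESR1 at 0 in viable endosperm. Calls for the 10 seed coat markers were 0 higher and 2 lower in both groups (9 tested), in the authors' deposited table. Their summed level was 497 to 609 CPM in viable and 527 to 976 CPM in lethal libraries, and 946 CPM in the pool.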

How the data were processed

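Endosperm RNA of 10 samples, merged by the authors into 3 replicates per group, was analysed with their pooled balanced values. The deposited allele tables give raw counts per gene for Ler and for Col. How reads were assigned is not given in the sources used. The authors' deposited expression tables hold 1 FPKM value per group, scaled separately in each table, and a q-value per gene, per the file headers. The submitters' processing notes name Bowtie, TopHat, Cuffdiff, FastQC, Trim Galore and, as genome, TAIR10. Tables of transposable elements and 10 columns with allele counts of individual balanced replicates were left out, since those columns map to no sample here.

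Viable and lethal endosperm were compared with edgeR 4.0.16 (R 4.3.3) on Ler plus Col counts (TMM scaling, filterByExpr, Benjamini-Hochberg adjustment over all genes tested). Printed CPM use the library's total gene reads without TMM factors. Each SE was obtained by dividing the log2 difference by the square root of F. The Col share was tested in genes with at least 10 reads in every library, with a term for each library. Alternatives used DESeq2 1.42.0, limma 3.58.1, RLE scaling, other filters and pseudocounts, a replicate block and each library left out. Deviations from the group mean in log2 CPM (prior count 2) correlated by 0.114, 0.475 and 0.432 between equal replicate numbers over 12674 genes. Viable replicate 1 correlated more with lethal replicate 2 (0.155) than with lethal replicate 1. Pairing by replicate number entered only the replicate block among the alternatives. It is drawn from the data alone. In the log Col to Ler ratio the correlations between equal numbers were 0.0072, 0.0615 and 0.0566. Fits were tested on simulated data. Of the 37328 genes, 37043 matched the reference table, which gave symbols only. Named genes were all 6 members, the 5 most like MFT or TFL1 by each measure, and, from the lists, up to 3 genes each way with the largest fold against balanced. Other list genes, markers and neighbours in a locus were named after their values were seen. The members and lists were chosen with earlier results of these data known.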

Additional observations from a re-analysis of the deposited data

How the results depend on the processing

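For MFT and BFT, the direction and the lack of a call in level and in Col share were kept under all 42 alternatives that could be computed, with adjusted p-values of at least 0.491. The requirement of 50 reads left neither gene to test. The count of genes called between viable and lethal endosperm was less stable. For the level it was 0 as reported, 117 with the replicate block, 199 by DESeq2, 81 without the count filter, and 0 when any library was left out. With the replicate block the log2 difference was 2.10 for MFT and -1.03 for BFT (edgeR adjusted p = 0.510 and 0.491). For the Col share it was 8 genes as reported, 0 with the replicate block, 0 by limma, and 0 to 26 with each library left out in turn (26 without viable replicate 3). Without replicate 3 in both groups, an alternative chosen after seeing the data, it was 47. By FPKM, 2 members passed a log2 difference of 1 in viable against balanced endosperm, 3 with a pseudocount of 0.1 and 1 with a pseudocount of 5. Between viable and lethal endosperm 2 passed, 4 with a pseudocount of 0.1 and 0 with a pseudocount of 5. The causes were not tested. The Col share of MFT rests on 10 to 19 reads in 3 of the 6 libraries. Folds against balanced with each library left out were added after seeing the data.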
